A study of Arabidopsis thaliana with 4 samples.

Results

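Late embryogenesis abundant (LEA) proteins were followed through 46 Arabidopsis thaliana loci of the LEA_1, LEA_2, LEA_3, LEA_4, LEA_5, seed maturation protein, dehydrin, PvLEA18 and AtM groups. The cold-regulated genes COR15A, COR15B, COR47, KIN1 and KIN2 were left out of the list and are described separately. Of the 46 loci, 40 had a row among the 23174 genes of the expression table. The other 6 loci (AT3G53770, AT2G03740, AT5G27980, AT5G53260, AT5G53270 and AT2G33690) were not analysed here. No minimum level was asked of a gene here, but no gene of the table had fewer than 2 reads in all. Whether these 6 loci had too few reads in both genotypes is not known, so shares below cover only the 40. The list was drawn by protein family, but it was proposed with results of the comparison of atino80-5 with wild type already known. All values of that comparison are therefore given as a description, including the test values printed beside them.

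LEA proteins are small, very hydrophilic and often unfolded proteins that build up late in seed development and during drying, cold or salt stress, and they help membranes and other proteins to survive the loss of water. In Arabidopsis, many of their genes are switched on in the maturing embryo by the transcription factors ABI3 and ABI5 acting with the hormone abscisic acid, and are silent in vegetative tissue after germination. Others, above all several dehydrins, are active in leaves and roots and respond to cold or drought. INO80 is the ATPase of a chromatin remodelling complex that slides nucleosomes and exchanges their histones.

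RNA came from whole seedlings of the wild type and of atino80-5, a mutant allele of INO80, at an age of 14 days. Both genotypes had been kept cold and dark as seeds and then grown on MS agar with 16 h light and 8 h dark at 22 °C. PolyA-selected, stranded libraries were made from 2 samples per genotype, and the labels name no other treatment, do not say how many seedlings each sample held, and do not say that replicates were separate cultures. The spread behind each p-value is therefore that of these 4 samples and could be technical only. Expression was deposited as FPKM, fragments scaled to gene length and to a size factor of each library, and whole reads per gene could be recovered from it. The size factors did not follow total reads. Wild type replicate 1 had 13846046 reads and a factor of 0.999, and atino80-5 replicate 1 had 13068214 reads and a factor of 0.785.

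The libraries held 13068214 to 18406709 reads. The Pearson correlation across genes, which are not independent replicates, was 0.9896 for the wild-type pair, 0.9732 for the mutant pair and 0.9334 to 0.9679 between genotypes, with atino80-5 replicate 1 in the lowest pairs. INO80 itself was at 4.28 and 4.54 FPKM in wild type and at 2.72 and 3.13 FPKM in atino80-5 (log2 difference -0.46, limma adjusted p = 0.117), so the mutant label could not be checked by absence of the transcript. Leaf markers were high in every library, with RBCS1A between 20628 and 36160 FPKM, RCA between 1124 and 1890 FPKM and CAB2 between 1848 and 4203 FPKM. Of the root markers, PYK10 was at 323 and 372 FPKM in wild type and at 500 and 601 FPKM in the mutant, and NRT2:1 at 2.12 and 2.19 against 1.27 and 0.705 FPKM. None of these 5 markers was called by limma, and their part in the results was not tested. In whole seedlings, fewer cells that express a gene and less RNA per cell cannot be told apart.

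The letters ACGTG, the core of the abscisic acid response element (ABRE) that ABI5-type bZIP factors bind, were the motif that LEA promoters held most often among those searched. ACGTG is also the shortest of these motifs and the most frequent in all promoters, so its first place is not read as a result. Promoters of 6 LEA genes are shown, 4 with this core and 2 without. The sequences are the 250 bases before the annotated start in RefSeq's TAIR10.1 genome, read 5′ to 3′ on the strand of the gene, with each match of ACGTG on either strand in capitals. LEA18 (chr2:14863413-14863662, minus strand), AT3G15670 (chr3:5310989-5311238, minus), EM6 (chr2:16780369-16780618, minus) and EM1 (chr3:19214472-19214721, plus) had wild-type means of at most 1.11 FPKM and were called higher in atino80-5. M17 (chr2:17206202-17206451, plus) was also called higher but held no match, and ERD10 (chr1:7089607-7089856, minus) is a dehydrin gene with high wild-type values and no match. No other annotated gene overlaps these windows.
LEA18: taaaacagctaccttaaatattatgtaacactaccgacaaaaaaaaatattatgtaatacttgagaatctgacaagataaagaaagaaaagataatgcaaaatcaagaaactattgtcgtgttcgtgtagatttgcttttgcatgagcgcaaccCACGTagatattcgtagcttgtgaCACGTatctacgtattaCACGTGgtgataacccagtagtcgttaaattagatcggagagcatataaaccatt
AT3G15670: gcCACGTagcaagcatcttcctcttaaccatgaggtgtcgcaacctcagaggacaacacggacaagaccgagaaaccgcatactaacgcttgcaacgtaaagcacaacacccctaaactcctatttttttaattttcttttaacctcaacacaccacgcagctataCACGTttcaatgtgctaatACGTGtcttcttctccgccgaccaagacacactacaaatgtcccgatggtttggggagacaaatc
EM6: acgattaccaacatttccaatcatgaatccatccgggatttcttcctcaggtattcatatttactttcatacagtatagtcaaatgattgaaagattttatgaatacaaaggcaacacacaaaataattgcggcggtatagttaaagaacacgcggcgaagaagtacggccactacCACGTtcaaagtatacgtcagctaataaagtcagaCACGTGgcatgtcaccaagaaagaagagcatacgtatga
EM1: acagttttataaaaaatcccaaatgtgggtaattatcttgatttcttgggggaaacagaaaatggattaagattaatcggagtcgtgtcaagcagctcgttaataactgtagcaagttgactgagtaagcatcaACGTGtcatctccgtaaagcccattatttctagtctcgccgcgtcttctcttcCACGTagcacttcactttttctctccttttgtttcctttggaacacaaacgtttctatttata
M17: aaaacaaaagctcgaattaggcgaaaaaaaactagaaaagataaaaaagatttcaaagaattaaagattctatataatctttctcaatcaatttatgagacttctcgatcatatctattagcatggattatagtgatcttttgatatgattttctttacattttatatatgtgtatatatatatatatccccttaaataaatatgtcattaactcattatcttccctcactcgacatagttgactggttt
ERD10: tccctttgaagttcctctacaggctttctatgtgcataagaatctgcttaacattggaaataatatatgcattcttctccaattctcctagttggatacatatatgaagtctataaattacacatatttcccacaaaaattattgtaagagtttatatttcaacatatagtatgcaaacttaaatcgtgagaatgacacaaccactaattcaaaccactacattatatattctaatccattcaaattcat

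ACGTG was found in the promoters of 34 of the 46 LEA loci (73.9%), against 6288 of all 27443 protein-coding promoters (22.9%). Matches on both strands were searched, and overlapping matches of the palindrome CACGTG were counted as 1 site. LEA18 and AT3G15670 hold 3 sites each, and EM6 and EM1 hold 2 each. More than 1 site was often present, as 22 LEA promoters (47.8%) held at least 2, against 4.98% of all promoters. In the LEA_4 group this was so for 12 of 14 promoters.

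The G-box CACGTG, which contains the ABRE core, was present in 20 of 46 LEA promoters (43.5%) and in 6.49% of all promoters. CATGCA, the core of the RY element bound by ABI3-type factors, was present in 8 of 46 (17.4%) and in 8.43% of all. The longer CATGCATG was present in 3 of 46 and in 0.776% of all. ACCGAC or GCCGAC, the core of the drought and cold responsive element (DRE), was present in 13 of 46 (28.3%) and in 7.09% of all. LTI30, a low-temperature-induced dehydrin gene, held this core 3 times and no ACGTG. These shares count letters and no binding was measured.

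The 40 genes were separated by their wild-type values into 3 classes. At most 3 reads over both wild-type libraries were counted for 13 genes, which are called silent here only in the sense of that count. A further 11 genes had more reads but a wild-type mean under 1 FPKM, and 16 genes had a wild-type mean of at least 1 FPKM. Just inside and outside the first limit stood AT3G15670 with 3 wild-type reads and AT4G13230 with 4. At the second limit AT3G17520 had a wild-type mean of 0.819 FPKM and LEA18 one of 1.11 FPKM. Seeds were not measured, so whether a silent or low gene is seed-specific rests on background and not on these data.

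Counts per class differed between the protein groups, with few genes in each and no test. Of 13 LEA_4 genes with values, 9 were silent and 3 low. Both LEA_5 genes and both AtM genes were low, and of the 3 seed maturation protein genes 2 were silent and 1 low. All 3 LEA_2 and all 3 LEA_3 genes were at 1 FPKM or more. The 9 dehydrin genes were split into 6 at that level, 1 low and 2 silent, the LEA_1 genes into 2 at that level and 1 low, and the PvLEA18 genes into 1 and 1.

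**Figure D1:**
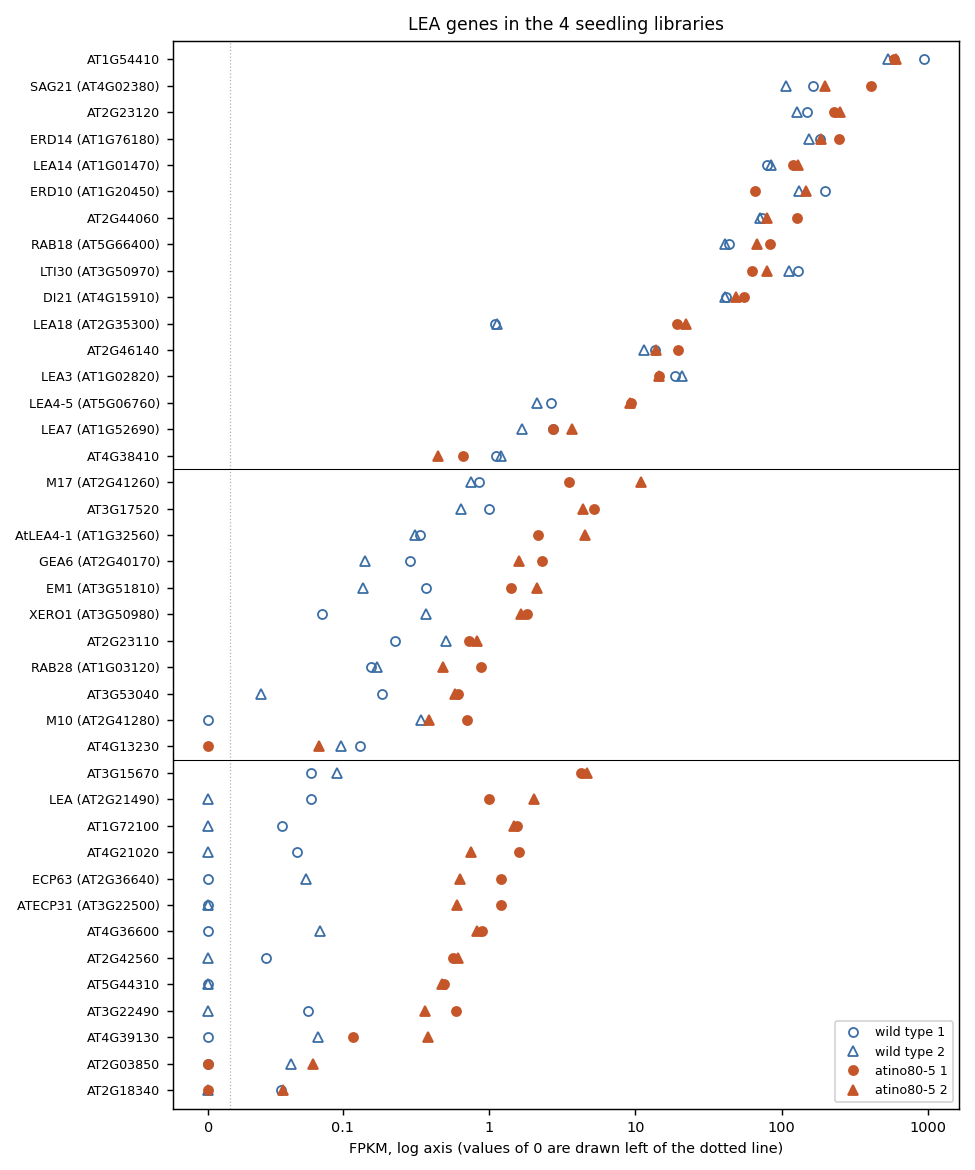
FPKM of the 40 LEA genes in each of the 4 libraries, on a log axis with values of 0 drawn left of the dotted line; open symbols are wild type, filled symbols atino80-5. The upper block holds the 16 genes at 1 FPKM or more in wild type, the middle block the 11 low genes and the lower block the 13 silent genes, and the genotypes lie furthest apart in the middle and lower blocks and at LEA18.

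Summed over the 13 silent genes, wild type reached 0.333 and 0.328 FPKM, and atino80-5 reached 13.5 and 12.9 FPKM. This rested on 15 wild-type and 463 mutant reads. The 11 low genes summed to 3.61 and 3.51 FPKM in wild type and to 19.4 and 27.6 FPKM in the mutant. Both sums were thus higher in both mutant libraries, and a class defined by few wild-type reads has little room to show lower values. Of all 1385 genes of the table with as few wild-type reads, 26.1% were higher in both mutant libraries and 39 (2.82%) had at least 20 mutant reads. Among the 13 silent LEA genes 11 were higher in both and 9 had at least 20 mutant reads. These counts cover only genes with a row, and no gene of the table had fewer than 2 reads in all. Silent genes with fewer wild-type reads than that, LEA or other, had a row only through mutant reads. How often silent loci stayed silent in atino80-5 therefore cannot be read from these counts.

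The 12 genes at 10 FPKM or more in wild type summed to 2028 and 1435 FPKM there. In atino80-5 they summed to 2024 and 1817 FPKM, and these ranges overlap. The largest part was AT1G54410, at 936 and 532 FPKM in wild type and 590 and 602 FPKM in the mutant. Taken singly, 8 of the 12 genes were higher in both mutant libraries, 2 were lower and 2 overlapped. Of all 17745 genes of the table in the class at 1 FPKM or more, 32.0% were higher in both. The 4 genes between 1 and 10 FPKM summed to 7.62 and 6.14 FPKM against 31.9 and 35.3 FPKM, most of it from LEA18 in the mutant. In both genotypes nearly all LEA RNA, by this sum, came from the 12 well-expressed genes.

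**Figure D2:**
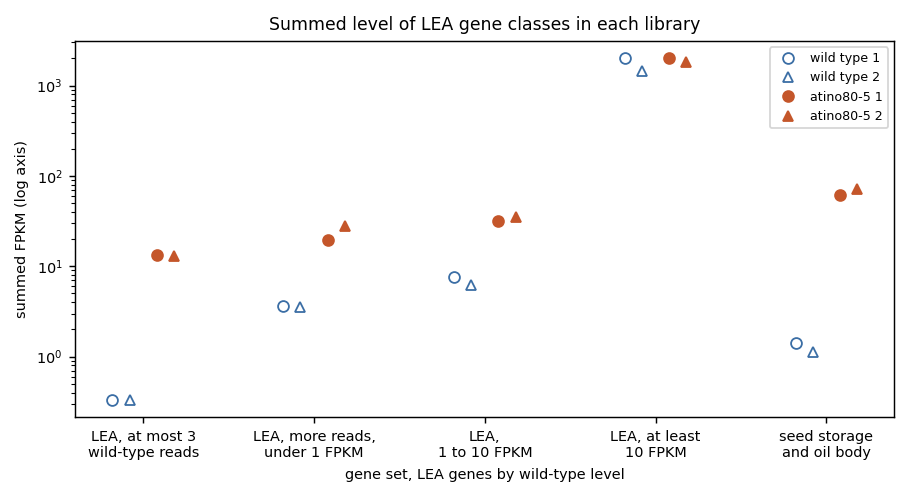
Summed FPKM (log axis) of LEA genes in each library, by wild-type level, with the seed storage and oil body genes beside them. The atino80-5 points of the silent class lie at 13.5 and 12.9 FPKM above wild-type points at 0.333 and 0.328 FPKM. The sums of the 12 genes at 10 FPKM or more overlap between genotypes, though 8 of the 12 were higher in both mutant libraries.

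Both mutant libraries lay above both wild-type libraries for 31 of the 40 genes and below for 4 genes (LTI30, LEA3, AT4G38410 and AT4G13230). Over all genes of the table the shares were 29.4% above and 30.1% below. The test, limma on log2(FPKM + 1) over all genes that averaged 1 FPKM or more, could be applied to 21 of the 40. It called 8 higher and 0 lower in atino80-5 at an adjusted p under 0.05, against 2.99% of all 17642 tested genes called higher, 2.42% called lower and 5.41% called either way. Before adjustment, limma gave a p under 0.05 to 14 of the 21 and to 4761 of all 17642 tested genes. The 6 silent and low genes that were tested, AT3G15670 and EM1 among them, reached the minimum level only through their mutant values, so nothing is read from these counts.

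Without the minimum level, limma called 15 of 40 higher and 0 lower, where 1.92% and 1.95% of all genes were called, 3.87% in all. The authors' deposited table, a DESeq2 test of the reads, called 21 higher and 1 lower (LTI30), with 5.85% and 3.65% of all genes, 9.5% in all. It gave no adjusted p for 6 of the 40. The median log2 difference over all 40 LEA genes, with no minimum level, was 0.58, and over all genes of the table it was -0.01. Over the 21 tested genes it was 0.80 and at a minimum of 5 FPKM 0.42, but both sets hold genes that reached the level through the mutant. At the minimum of 5 FPKM these were LEA18 and LEA4-5. Over the 12 genes at 10 FPKM or more in wild type the median was 0.36.

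**Figure D3:**
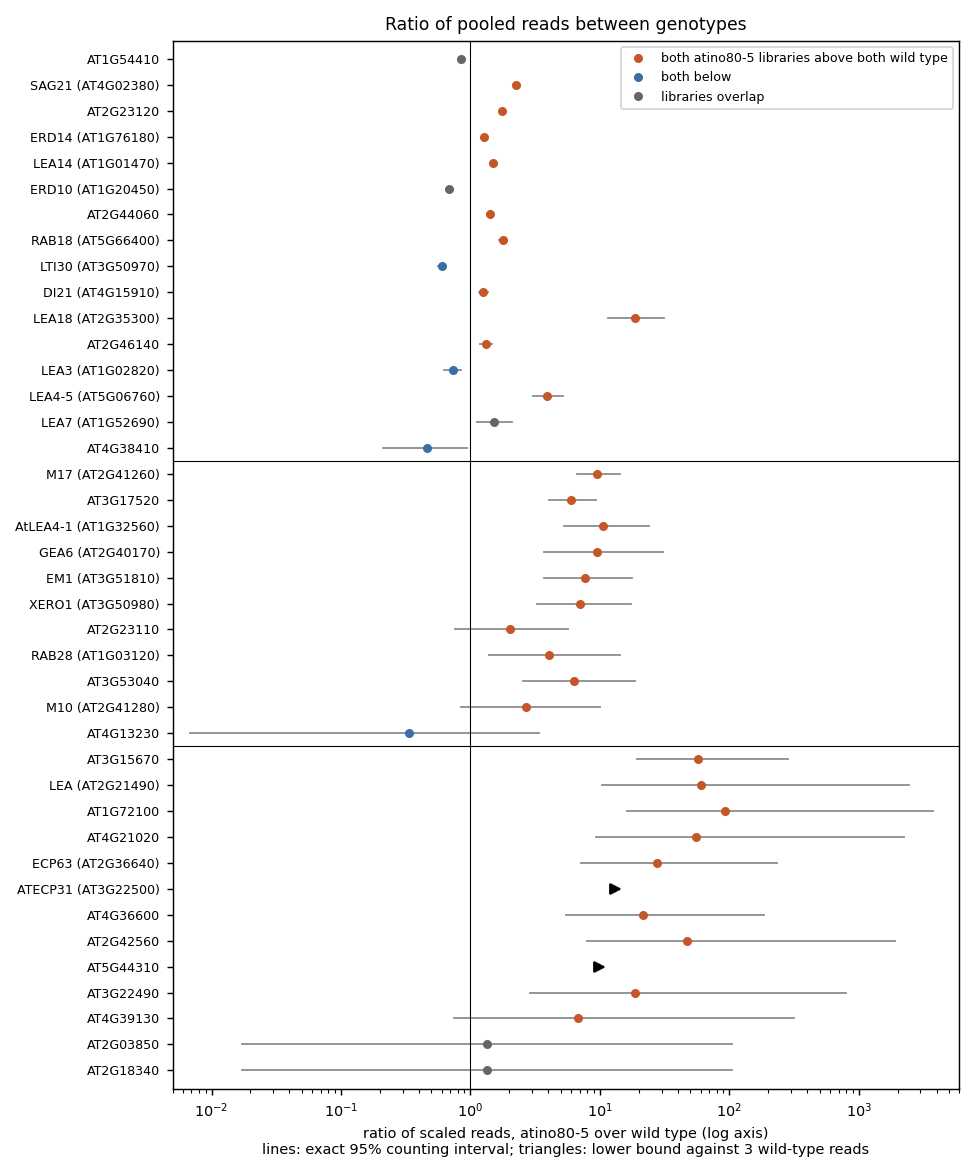
Ratio of size-scaled reads, atino80-5 over wild type (log axis), for the 40 LEA genes, with exact 95% counting intervals as lines; triangles are lower bounds for the 2 genes with no wild-type read. Ratios of silent genes reach 93.0 with wide intervals, whereas the 12 genes at 10 FPKM or more have narrow intervals and ratios from 0.603 (LTI30) to 2.24 (SAG21).

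The LEA_5 proteins EM1 and EM6 are the classical Em proteins of dry seeds, whose genes are direct targets of ABI5 in Arabidopsis. EM6 (AT2G40170, listed as GEA6) was at 0.285 and 0.141 FPKM in wild type and at 2.30 and 1.59 FPKM in atino80-5, from 3, 2, 19 and 16 reads. The mutant libraries lay above wild type, and EM6 rose 9.12-fold (log2 difference 1.27, SE 0.18, limma adjusted p = 0.0173). EM1 (AT3G51810) was at 0.372 and 0.138 FPKM in wild type and at 1.42 and 2.14 FPKM in the mutant, from 6, 3, 18 and 33 reads. EM1 rose 6.98-fold (log2 difference 1.14, SE 0.20, limma adjusted p = 0.0278), but without wild-type replicate 2 its adjusted p was 0.0550. Both genes entered the test only through their mutant values and passed on few reads. Neither exceeded 2.30 FPKM in any library.

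The LEA_1 group holds short proteins that accumulate in seeds and in water-stressed vegetative tissue. LEA18 (AT2G35300) was at 1.104 and 1.126 FPKM in wild type and at 19.2 and 22.0 FPKM in atino80-5, from 8, 11, 109 and 153 reads. It rose 18.5-fold (log2 difference 3.35, SE 0.15, limma adjusted p = 0.00172). On the log2(FPKM + 1) scale this was the largest fitted difference among the 21 tested LEA genes, but with a pseudocount of 0.1 or with voom that of AT3G15670 was larger (4.70 against 4.09, and 5.46 against 4.14). The mutant libraries did not differ beyond counting error, with a ratio of replicate 2 to replicate 1 of 1.15 and a 95% interval of 0.894 to 1.48.

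LEA4-5 (AT5G06760), the water-deficit-induced member of the group, was at 2.65 and 2.12 FPKM against 9.39 and 9.12 FPKM and rose 3.88-fold (log2 difference 1.60, SE 0.15, limma adjusted p = 0.00523). AtLEA4-1 (AT1G32560) was at 0.338 and 0.313 FPKM against 2.15 and 4.495 FPKM and rose 10.2-fold (log2 difference 1.65, SE 0.27, limma adjusted p = 0.0239). AtLEA4-1, with a wild-type mean of 0.325 FPKM, entered the test only through its mutant values. The promoters of all 3 LEA_1 genes held 3 ACGTG sites and the DRE core.

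LEA_4 proteins carry repeats of an amphipathic helix and are the main group of the maturing embryo. AT3G15670 was counted at 1 and 2 reads in the wild-type pair and at 55 and 73 in the mutant pair, or 0.0609 and 0.0904 against 4.27 and 4.64 FPKM. Its scaled reads were 57.5 times those of wild type with a 95% counting interval of 19.2 to 282 (log2 difference 2.34, SE 0.15, limma adjusted p = 0.00286). It was the silent gene with the most mutant reads. Like the low gene AT3G17520, it entered the test only through its mutant values. AT3G17520 was at 0.994 and 0.645 FPKM in wild type and at 5.22 and 4.41 FPKM in atino80-5, and rose 5.88-fold (log2 difference 1.68, SE 0.17, limma adjusted p = 0.00594).

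A run of LEA_4 genes went from 2 or fewer wild-type reads to at least 10 reads in each mutant library, below the level for the main test. AT1G72100 had 1 and 0 wild-type reads against 32 and 37 in atino80-5, a scaled ratio of 93.0 with an interval of 16.1 to 3724. ECP63, named after a carrot embryogenic cell protein, had 0 and 2 reads against 25 and 16, a ratio of 27.6 with an interval of 7.17 to 236. AT2G42560 had 1 and 0 reads against 15 and 20, a ratio of 47.2 with an interval of 7.93 to 1915. None of these intervals reaches 1, and in each gene the genotypes did not overlap.

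AT4G21020 had 1 and 0 wild-type reads against 26 and 15 in the mutant, a ratio of 55.2 with an interval of 9.37 to 2234. AT4G36600 had 0 and 2 reads against 15 and 17, a ratio of 21.6 with an interval of 5.50 to 186. AT5G44310 had no wild-type read against 10 and 12, which is 9.88-fold higher when wild type as a group is set to 3 reads. Their mutant levels stayed between 0.479 and 1.60 FPKM, so these transcripts were rare also in atino80-5. AT3G53040, a low gene, had 5 and 1 reads against 13 and 15, a ratio of 6.29 with an interval of 2.55 to 18.6.

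The last 4 LEA_4 genes were not higher in both mutant libraries. AT2G03850 and AT2G18340 had 1 read in each genotype, for which no difference was detectable at this depth. AT4G13230 had 2 and 2 wild-type reads and 0 and 1 mutant reads, with an interval of 0.00684 to 3.40 around its ratio. LEA7 (AT1G52690), the group's only gene above 1 FPKM in wild type, was at 2.75 and 1.68 FPKM against 2.72 and 3.70 FPKM, and its genotypes overlapped (limma adjusted p = 0.278).

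The seed maturation protein group, small proteins of late embryos, was silent or nearly so in wild type. ECP31 (AT3G22500, listed as ATECP31), named after a carrot embryogenic cell protein, had no wild-type read and 18 and 11 mutant reads. This was 13.0-fold higher than the 3-read floor. AT3G22490, its neighbour on the chromosome, had 1 and 0 reads against 8 and 6, a ratio of 18.9 with an interval of 2.87 to 798. RAB28 (AT1G03120), an abscisic-acid-responsive gene, had 2 and 3 reads against 9 and 6, a ratio of 4.04 with an interval of 1.40 to 14.2. All 3 with values, of 6 loci in the group, were higher in both mutant libraries, and none was abundant enough for the main test.

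M17 and M10, the AtM genes, lie close together and encode seed proteins. M17 (AT2G41260) was at 0.848 and 0.754 FPKM in wild type and at 3.53 and 10.98 FPKM in atino80-5, from 15, 18, 49 and 186 reads. It rose 9.05-fold (log2 difference 2.03, SE 0.42, limma adjusted p = 0.0482), and under 3 other settings its adjusted p lay between 0.0517 and 0.0855. M17 entered the test only through its mutant values, and its mutant libraries differed 3.11-fold, beyond counting error (95% interval 2.26 to 4.35). Of the 50-base runs in its exons, 23.2% occur elsewhere in the genome, so its reads may be shared with other loci and its value is uncertain. M10 had 0 and 5 wild-type reads and 6 and 4 mutant reads, a ratio of 2.69 with an interval of 0.839 to 10.05.

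Dehydrins bind membranes and water through lysine-rich segments, and the group held both silent and abundant genes. The dehydrin gene LEA (AT2G21490) had 1 and 0 wild-type reads and 13 and 32 mutant reads, a ratio of 60.6 with an interval of 10.3 to 2447. XERO1 (AT3G50980) had 1 and 7 reads against 20 and 22, a ratio of 7.07 with an interval of 3.28 to 17.4. AT4G39130 had 0 and 1 reads against 1 and 4, which does not separate the genotypes at this depth. LEA and XERO1 thus had more reads in both mutant libraries by intervals above 1.

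LTI30 (AT3G50970), which lies next to XERO1 and is induced by cold, was at 129 and 113 FPKM in wild type and at 62.5 and 79.9 FPKM in atino80-5. Both mutant libraries lay below wild type, with a limma adjusted p of 0.0863, above the threshold (log2 difference -0.76, SE 0.20). In the authors' deposited table the adjusted p of LTI30 was 0.0138, and 3 other ways of scaling or modelling the 4 libraries also called it lower. The neighbours XERO1 and LTI30 thus had opposite signs, at wild-type levels far apart.

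RAB18 (AT5G66400), a dehydrin gene that abscisic acid induces, was at 43.8 and 40.8 FPKM against 83.5 and 67.9 FPKM, with a limma adjusted p of 0.0589 and 0.00465 in the authors' deposited table. ERD14 (AT1G76180), an acidic dehydrin with chaperone activity, was at 183 and 154 FPKM against 246 and 185 FPKM (limma adjusted p = 0.350), and its sign turned under quantile normalisation. ERD10 (AT1G20450) was at 197 and 132 FPKM in wild type and at 66.2 and 147 FPKM in atino80-5, so the genotypes overlapped (limma adjusted p = 0.293). Its mutant libraries differed 2.21-fold, more than the 1.55-fold between its genotype means.

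AT1G54410, a small histidine-rich dehydrin, had the highest FPKM of all LEA genes, at 936 and 532 FPKM in wild type and 590 and 602 FPKM in the mutant. The genotypes overlapped (limma adjusted p = 0.630), and without wild-type replicate 1 the sign turned. AT4G38410 was at 1.12 and 1.21 FPKM against 0.658 and 0.450 FPKM, from 13, 19, 6 and 5 reads. It was lower in both mutant libraries and averaged under the level for testing.

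LEA_2 proteins differ from the other groups in being folded and less hydrophilic. LEA14 (AT1G01470) was at 80.0 and 85.1 FPKM against 120 and 129 FPKM (log2 difference 0.59, SE 0.17, limma adjusted p = 0.105), with 0.0488 in the authors' deposited table. AT2G44060 was at 73.1 and 71.3 FPKM against 128 and 80.0 FPKM (limma adjusted p = 0.266). AT2G46140 was at 13.7 and 11.5 FPKM against 19.5 and 13.8 FPKM (limma adjusted p = 0.295). In each of the 3 both mutant libraries were above wild type, and none passed limma's test.

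Of the LEA_3 proteins, SAG21 is a mitochondrial protein linked to senescence and oxidative stress. SAG21 (AT4G02380) was at 163 and 107 FPKM in wild type and at 410 and 199 FPKM in atino80-5 (log2 difference 1.104, SE 0.38, limma adjusted p = 0.140), and at 0.00394 in the authors' deposited table. Its mutant libraries themselves differed about as much as the genotypes, with replicate 2 at 0.486 of replicate 1. DI21, a drought-induced gene, was at 41.5 and 40.8 FPKM against 55.1 and 49.0 FPKM (limma adjusted p = 0.245). LEA3 (AT1G02820) was at 18.6 and 21.0 FPKM against 14.6 and 14.6 FPKM (limma adjusted p = 0.155), below wild type in both mutant libraries.

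The PvLEA18 group holds very small proteins, and its neighbouring genes AT2G23110 and AT2G23120 differed widely in level. AT2G23120 was at 149 and 127 FPKM against 229 and 250 FPKM (log2 difference 0.80, SE 0.19, limma adjusted p = 0.0735), and at 0.00394 in the authors' deposited table. AT2G23110 had 2 and 6 reads against 5 and 7, a ratio of 2.02 with an interval of 0.760 to 5.70. The mutant libraries were above wild type in both genes. Limma did not call AT2G23120, and AT2G23110 was under the level for testing.

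Reads of 6 of the 40 genes could include those of an overlapping annotated gene. For LEA7, AT2G18340, AT2G23120, AT3G22490 and RAB18 the other gene lies on the opposite strand. The strand setting of the counting is not given in the sources used here. For SAG21 the other gene lies on the same strand, so stranded counting would not separate them.

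The mutant libraries were also compared with each other, which does not use the genotype contrast. Of 37 LEA genes with reads in both, replicate 2 was higher for 16 and lower for 21. The counting interval of the ratio held 1 for 24 genes, lay above 1 for 6 and below 1 for 7. ERD10 (2.21, interval 2.07 to 2.36), M17 (3.11) and AtLEA4-1 (2.09, interval 1.22 to 3.70) were higher in replicate 2. SAG21, AT2G44060 (0.627, interval 0.592 to 0.664) and AT4G21020 (0.473, interval 0.233 to 0.927) were lower there. Among the 11 silent genes with reads in both libraries the interval held 1 for 9, so most of them were alike in both within wide counting error.

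**Figure D4:**
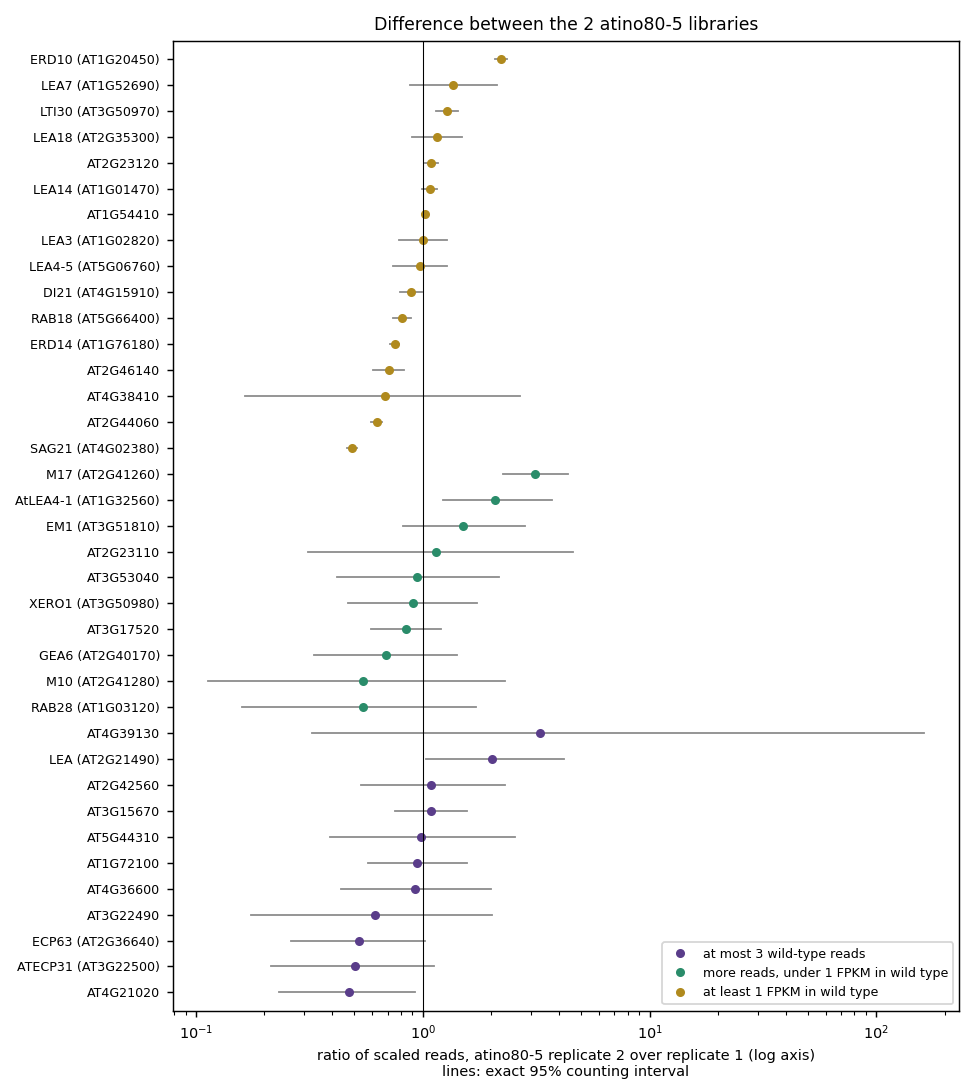
Ratio of scaled reads, atino80-5 replicate 2 over replicate 1 (log axis), for 37 LEA genes with exact 95% counting intervals, coloured by wild-type level. ERD10 and M17 lie well above 1 and SAG21 well below, and intervals of silent genes are wide.

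Promoters were also read by wild-type level, whose limits use no mutant values. No gene of the table had fewer than 2 reads in all. Silent genes with fewer wild-type reads than that, ECP31 and AT1G72100 among them, had a row only through mutant reads. The share of the silent class with ACGTG therefore rests in part on mutant values. ACGTG was present in 12 of 13 silent genes (92.3%), 9 of 11 low genes (81.8%) and 10 of 16 expressed genes (62.5%), and CACGTG in 8, 7 and 3 of them. Of all genes of the table with as few wild-type reads as the silent class, 26.9% held ACGTG, and of those at 1 FPKM or more 23.7%. The silent or low genes without ACGTG were ECP31, M17 and AT4G13230. CATGCA was present in 4, 2 and 1 genes of the 3 classes, and the DRE core in 4, 3 and 6. LEA classes hold few genes, and the differences between them were not tested.

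**Figure D5:**
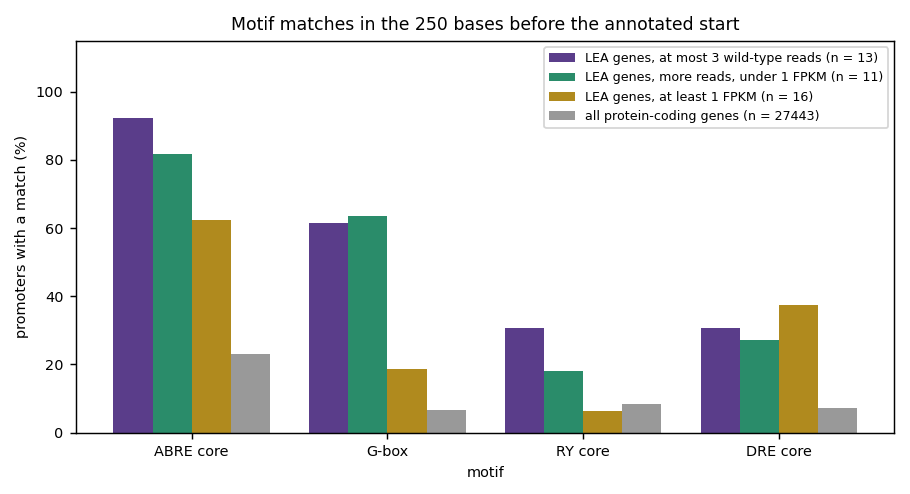
Share of promoters (250 bases, percent) with a match to each motif, for LEA genes by wild-type level and for all protein-coding genes. The ABRE core was present in 92.3% of silent and 62.5% of expressed LEA genes against 22.9% of all genes.

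Other genes of seed maturation were read from lists that were also chosen with earlier results known. Of 12 seed storage and oil body genes with values, 7 could be tested and 7 were called higher, having reached the minimum level through the mutant alone. The authors' deposited table called 8 higher, and their summed level was 1.42 and 1.12 FPKM against 61.4 and 71.0 FPKM. The cruciferin gene CRA1 was at 0.334 and 0.446 FPKM against 21.2 and 28.7 FPKM, and the albumin gene SESA5 had no wild-type read against 144 and 149 reads. The sum of the 12 storage and oil body genes in atino80-5 thus exceeded that of the silent and low LEA genes, 32.8 and 40.5 FPKM. Not all of the 12 were clear, as OLEO3 had 3 reads in each genotype and its libraries overlapped. CRU2, SESA3 and SESA4 had no wild-type read and only 11, 8 and 5 mutant reads.

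The seed maturation regulators gave no call by limma. Of 8 with values, 3 could be tested. ABI3, which directs embryo maturation, had no wild-type read and 12 and 7 mutant reads, 8.53-fold higher by the 3-read floor. Its adjusted p in the authors' deposited table was 0.0147. ABI5, the bZIP factor that binds Em promoters, was at 1.12 and 0.901 FPKM in wild type and at 1.02 and 0.939 FPKM in the mutant. VAL1 and VAL2, repressors of the embryo programme, were at 3.71 to 4.72 FPKM and at 4.24 to 5.49 FPKM over the 4 libraries. EEL, a bZIP factor related to ABI5, was at 1.83 and 1.39 FPKM against 1.06 and 1.17 FPKM, lower in both mutant libraries (limma adjusted p = 0.275). LEC2 had 2 reads, FUS3 had 7 and ABI4 had 0 in wild type, against 2, 3 and 4 in atino80-5.

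The abscisic acid bZIP factors ABF1, ABF2, ABF3, ABF4 and AREB3 were all tested and none was called, with a median log2 difference of -0.18. ABF1 was at 14.4 and 13.4 FPKM against 6.65 and 9.87 FPKM (limma adjusted p = 0.0998). Of 5 genes of abscisic acid and drought response, limma called RD20, a lipid droplet caleosin, which fell 3.01-fold (3.81 and 2.82 FPKM against 1.095 and 1.11 FPKM, limma adjusted p = 0.0247). RD29A was at 50.5 and 57.7 FPKM against 85.6 and 64.4 FPKM (limma adjusted p = 0.212), and limma called neither RD29B nor RD22. RD29B was at 1.98 and 1.81 FPKM against 3.42 and 2.01 FPKM, and RD22 at 49.3 and 62.3 FPKM against 104 and 82.5 FPKM. In the authors' deposited table RD22 was called higher (adjusted p = 0.0158). TSPO, with 4 and 9 wild-type reads against 29 and 12, was under the level for testing. Of the 5 genes, 4 were higher in both mutant libraries and 1, RD20, was lower. Over all genes of the table these shares were 29.4% and 30.1%.

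The cold LEA genes outside the list did not move together. COR15A, a chloroplast protein of cold acclimation, fell 2.31-fold, from 103 and 85.1 FPKM to 35.4 and 46.2 FPKM (limma adjusted p = 0.0299). KIN1 rose 2.26-fold, from 23.9 and 16.3 FPKM to 44.4 and 46.5 FPKM (limma adjusted p = 0.0345), and missed the threshold without the minimum level (limma adjusted p = 0.0505). Limma did not call COR15B, COR47 or KIN2. KIN2 was at 514 and 370 FPKM against 1055 and 599 FPKM and was called higher in the authors' deposited table (adjusted p = 0.0162). COR47, which lies next to ERD10, was at 330 and 247 FPKM against 298 and 291 FPKM.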

How the data were processed

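Per the labels' protocols, polyA RNA of whole seedlings was made into stranded dUTP libraries, and the submitters' processing notes list cutadapt, FastQC, SAMtools, HISAT2, featureCounts, deepTools, DESeq2 and the TAIR10 genome, with no version or role. The authors deposited FPKM values per library and per genotype mean, and DESeq2 results: normalised signal averaged over libraries, log2 fold change with its error, test score, p-value and adjusted p. Both deposited tables held the same log2 fold changes and adjusted p-values. The deposited FPKM multiply with the mean normalised signal to whole reads for 100% of 92696 values within 0.01 reads, which gave size factors of 0.999, 1.35, 0.785 and 0.957 in the order wild type 1 and 2, atino80-5 1 and 2. The gene length in the FPKM can hold introns, which does not change ratios within a gene. No gene of the tables had fewer than 2 reads in all.

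The 17642 genes that averaged 1 FPKM or more were tested with limma 3.58.1 in R 4.3.3 on log2(FPKM + 1), with an intensity trend, genotype as the only term, two-sided, Benjamini-Hochberg adjusted over all of them. That scale understates changes of low genes. Folds are ratios of mean FPKM. For silent genes the ratio of size-scaled reads, pooled over the libraries of each genotype, has an exact 95% (Clopper-Pearson) interval. With no wild-type read the ratio is set against 3 reads over the group. Intervals cover counting error only, and ratios against the 3-read floor leave out the counting error of the mutant reads. An exact permutation of 2 against 2 libraries allows no two-sided p below 0.333. The correlation of deviations of libraries with the same number was -0.03. This gave no sign that the numbers pair them, but with 2 libraries per genotype it cannot exclude a pairing.

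Every LEA gene was to be accounted for, with values in each library for genes called by limma or in the deposited table, genes at 1 FPKM or more in a genotype mean, and neighbouring pairs. The LEA genes, their groups and the gene lists were chosen with earlier results of these data known, from general knowledge. Gene positions and promoters come from RefSeq's TAIR10.1 annotation, since the deposited tables hold no coordinates. Protein features were planned and not run. DESeq2 and edgeR were not run here. Alternatives were other pseudocounts, filters, scalings, voom on the recovered reads, no trend, a replicate block and each library left out.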

Additional observations from a re-analysis of the deposited data

How the results depend on the processing

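The 8 LEA genes called higher became 15 without the minimum level and 2 with a minimum mean of 5 FPKM, where 14 of the 21 were left. These 2, LEA18 and LEA4-5, had wild-type means of 1.11 and 2.39 FPKM and passed that minimum only through their mutant values. The 0 called lower became 1 (LTI30) with scaling to total reads, with quantile normalisation and with voom. Leaving out 1 library each gave 7 to 16 called higher and 0 to 2 called lower. The upper ends, 16 and 2 (LTI30 and ERD10), came without atino80-5 replicate 2, in a fit where the lone mutant library is assumed to vary like wild type. Calls over all genes rose in the same fit, to 3895 higher and 3001 lower from 528 and 427. The causes were not tested.

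Pseudocounts of 0.1 and 5 gave 8 and 7 higher. Without the trend 9 were higher, and with voom 10. With the replicate number as a block 10 were higher and 0 lower, SAG21 and RAB18 being added, and over all genes 1115 higher and 870 lower. M17 missed the threshold with a pseudocount of 5 (adjusted p = 0.0855), no filter (0.0802) and no trend (0.0517), and EM1 without wild-type replicate 2 (0.0550). Signs turned for ERD14 under quantile normalisation (log2 difference -0.0372) and for AT1G54410 with 1 library left out (-0.65 to 0.16, the positive value without wild-type replicate 1). Scaling to total reads moved the median log2 difference of all genes from 0.03 to -0.16 and that of the tested LEA genes from 0.80 to 0.58. Calls over all genes were then 484 higher and 1133 lower, against 528 and 427 in the main fit. At the depth of these libraries, genes with 1 or 2 reads in each genotype allow no statement.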

Other observations

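Genes whose levels over the 4 libraries were closest to those of 2 LEA genes were listed by Euclidean distance in log2(FPKM + 1) among all tested genes. Closest to EM1 were CESA9 (distance 0.364), AT3G60670 (0.495), SWEET10 (0.510), GMI1 (0.514) and PCR1 (0.525). CESA9 was at 0.286 and 0.361 FPKM in wild type and at 1.68 and 1.75 FPKM in atino80-5. Closest to LEA18 were ICL (0.819), AT2G37030 (0.867), AT2G16367 (0.904), CRA1 (0.946) and JAZ7 (1.01). ICL, isocitrate lyase of the glyoxylate cycle that turns seed oil into sugar, was at 1.74 and 2.40 FPKM against 23.1 and 21.4 FPKM. With 4 libraries of 2 genotypes, these distances say little beyond a like level in each genotype.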
